A study of Mus musculus with 1600 samples.

Results

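The wells described here are chambers of a Fluidigm C1 chip, a microfluidic device that captures glomerular cells one per chamber, in which the microscope image taken before lysis showed more than 1 cell. They were chosen by the imaging label alone, with no filter on reads. Of the 1600 wells, 98 were labelled as holding 2 cells and 81 as holding more than 2 cells or debris, together 179. They were compared with the 833 wells labelled 1 cell, within the same pool of mice. The 588 wells labelled 0 cells show the RNA that reaches a chamber without a captured cell. The label for more than 2 cells also covers debris, so this class is not known to hold whole cells only.

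The study asked how glomerular cells differ in diabetic kidney disease. All mice were C57BL/6 and lacked Nos3 (genotype Nos3-/-), the gene of endothelial nitric oxide synthase, so the controls carry the deletion too. Diabetes was induced at 8 weeks of age by streptozotocin, a toxin of insulin-producing cells, injected for 5 days at 50 µg/g, and control littermates received citrate buffer. Glomeruli were taken at 10 weeks, 3 mice were pooled per condition, and the experiment was done 2 times, which gives 4 pools of 400 wells: control replicate 1, control replicate 2, diabetes replicate 1 and diabetes replicate 2, the number being the experiment. The wells of a pool share their mice and their cell suspension, so n is 4 pools in each comparison.

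The glomerulus is a tuft of capillaries that filters blood. Its endothelial cells line the capillaries, mesangial cells hold the loops together from within, and podocytes wrap them from outside with interlocking foot processes joined by slit diaphragms. Vascular smooth muscle and renin cells belong to the arterioles at the pole of the tuft, and resident or passing leukocytes are found inside it. A well that captures cells of different kinds yields 1 library with the genes of each, which is why images are used to set such wells aside in single-cell work.

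Some facts of the series bear on all results. The design text describes littermates matched for sex, whereas the wells of the control pools held reads of Xist, expressed from the inactive X chromosome of females, and those of the diabetes pools held reads of Y-linked genes: among 2-cell wells Xist was seen in 37 of 39 wells of control replicate 2 and in 1 of 24 wells of diabetes replicate 2. A difference between conditions and this difference cannot be told apart. Experiment 2 was sequenced more deeply, with median reads on genes per 1-cell well of 216648 (control) and 152913 (diabetes) against 25555 and 36364 in experiment 1. Nos3 still had reads, between 18.5 and 61.5 CPM (reads of a gene scaled to a common total of reads on genes) in the summed 2-cell wells, and gene-level counts do not show which exons they come from.

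Wells labelled more than 2 cells or debris differed in number mostly between experiments. For 2-cell wells this held in the control pools only. The 2-cell label was given to 12 of 400 wells in control replicate 1, which is 3.00% (95% exact binomial interval 1.56% to 5.18%), to 39 wells (9.75%) in control replicate 2, to 23 wells (5.75%) in diabetes replicate 1 and to 24 wells (6.00%) in diabetes replicate 2. The label for more than 2 cells or debris was given to 4 wells (1.00%) and 5 wells (1.25%) in the control and diabetes pools of experiment 1, and to 32 wells (8.00%) and 40 wells (10.0%) in those of experiment 2. The latter label was thus 8-fold more frequent in both pools of experiment 2, in which fewer chambers were empty (27.8% and 24.5%, against 48.8% and 46.0%). On the chip, the 63 2-cell wells of experiment 2 were spread over all but 1 of the array columns, with at most 8 in a column.

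Wells imaged with more cells gave more reads. In control replicate 1 the median number of reads on genes was 25555 in 1-cell wells, 52534 in 2-cell wells and 63745 in wells with more than 2 cells or debris, called more-than-2 wells from here on. In control replicate 2 the medians were 216648, 343626 and 419573. In diabetes replicate 1 they were 36364, 52624 and 59790, and in diabetes replicate 2 they were 152913, 245840 and 336796. The order was the same in each of the 4 pools, and empty wells lay far lower, at 2212 and 2397 in experiment 1 and at 33610 and 32994 in experiment 2.

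The 2-cell wells held 1.66-fold the reads of 1-cell wells on average over pools (mean log2 ratio of medians 0.73 ± 0.22, SD, n = 4 pools), from 1.45-fold in diabetes replicate 1 to 2.06-fold in control replicate 1. The wells with more than 2 cells or debris held 2.05-fold the reads (log2 ratio 1.03 ± 0.26, SD, n = 4 pools). Both differences were positive in 4 of 4 pools, and the exact two-sided sign-flip permutation test gave p = 0.13 for each, the smallest value that 4 pools allow (0.21 when adjusted over the 10 measures tested in this way). No measure per pool can therefore pass a threshold of 0.05.

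The classes overlapped well by well. Of the 98 2-cell wells, 70 (71.4%) lay above the 1-cell median of their pool and 51 (52.0%) above its upper quartile. Of the 81 wells with more than 2 cells or debris, 63 (77.8%) lay above the median and 53 (65.4%) above the upper quartile. The lowest 2-cell wells had 7838 reads (diabetes replicate 1) and 31475 reads (diabetes replicate 2), values below the 1-cell medians. A read count therefore does not separate the imaging classes in these data.

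**Figure D1:**
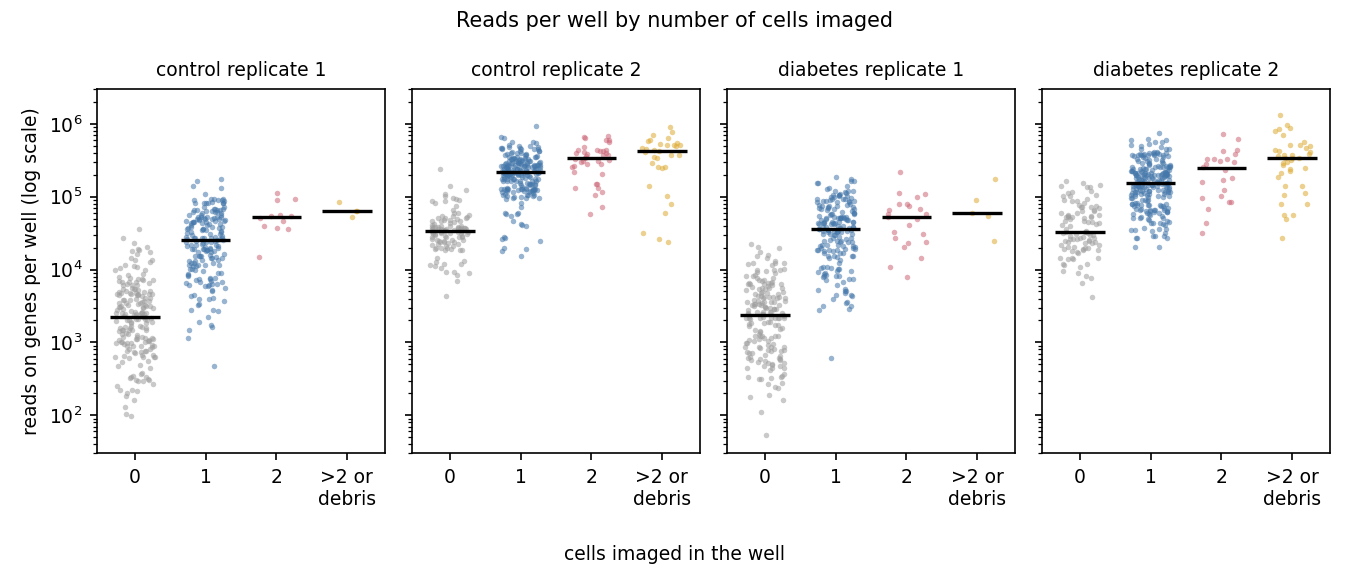
Reads on genes per well (vertical axis, log scale) by the number of cells imaged (horizontal axis), with 1 panel per pool; each point is a well and the bar is the median of its class. The medians step upwards from 1 cell to 2 cells to more than 2 cells or debris in the 4 panels, while the clouds of points overlap.

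In experiment 1 each chamber also received a fixed amount of spike-in RNA, synthetic transcripts against which the RNA of the cell can be measured. The median ratio of reads on genes to spike-in reads was 3.21 in 1-cell, 5.46 in 2-cell and 9.01 in the 4 wells with more than 2 cells or debris of control replicate 1. In diabetes replicate 1 it was 4.09, 7.33 and 7.04. The 2-cell wells thus held 1.70-fold and 1.79-fold the endogenous RNA per spike-in read of 1-cell wells in the control and diabetes pools, with no test over 2 pools. Empty wells were at 0.183 and 0.231. One spike-in sequence took 96.3% of the spike-in reads, and without it the mean log2 ratio was 0.85 in place of 0.80.

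More genes were seen in wells with more cells, also at equal depth. The median number of genes with at least 1 read in 1-cell, 2-cell and more-than-2 wells was 1549, 2589.5 and 3388.5 in control replicate 1. It was 3609, 4420 and 4543.5 in control replicate 2, 2141, 2979 and 2847 in diabetes replicate 1, and 3502.5, 3865 and 4439.5 in diabetes replicate 2. The mean log2 ratio to 1-cell wells was 0.41 ± 0.26 for 2-cell wells and 0.55 ± 0.39 for the more-than-2 class (SD, n = 4 pools, exact permutation p = 0.13 each). Diabetes replicate 1 was the pool in which the more-than-2 class did not exceed the 2-cell class.

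To remove depth, each well was thinned at random to 10000 reads, which 97 of 98 2-cell wells, 81 of 81 more-than-2 wells and 759 of 833 1-cell wells reached. The median number of genes then was 1460.5, 1855 and 2307 for 1-cell, 2-cell and more-than-2 wells of control replicate 1. It was 1562, 1944 and 1988 in control replicate 2, and 1714, 2071.5 and 2009 in diabetes replicate 1. In diabetes replicate 2 it was 1582.5, 1700.5 and 2080. The 2-cell wells thus showed 1.20-fold the genes of 1-cell wells at the same depth (log2 ratio 0.26 ± 0.11), and the more-than-2 wells 1.33-fold (0.41 ± 0.18), higher in 4 of 4 pools (exact permutation p = 0.13 each).

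A larger number of genes at equal depth was not particular to wells with more cells. The wells imaged empty that reached 10000 reads had medians between 1812 and 2477 genes, above the 2-cell medians of control replicate 2 and both diabetes pools and just below that of control replicate 1. Within wells whose leading markers were endothelial, the mean log2 ratio of 2-cell to 1-cell wells at equal depth was 0.20 ± 0.12 (SD, n = 4 pools). The 1-cell and 2-cell medians of these wells were 1564 and 1593 genes in control replicate 1, 1627 and 1991 in control replicate 2, 1700 and 2071.5 in diabetes replicate 1, and 1636 and 1880 in diabetes replicate 2. Control replicate 1, with 6 such 2-cell wells, thus showed almost no difference.

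**Figure D2:**
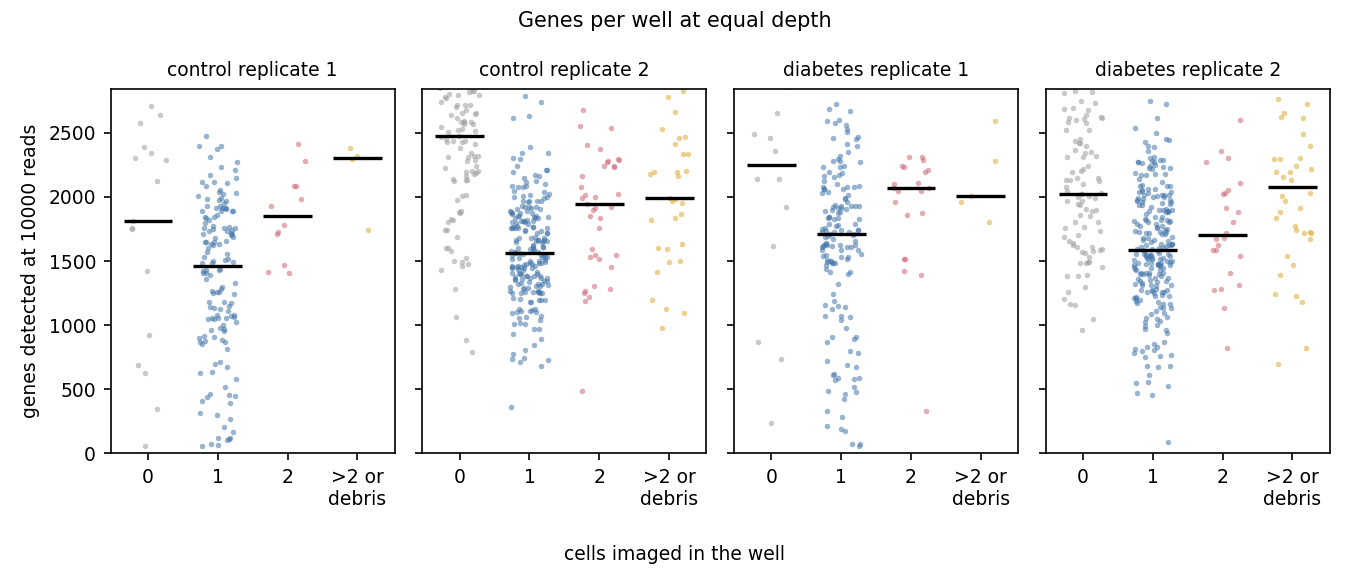
Genes detected per well after thinning to 10000 reads (vertical axis) by the number of cells imaged (horizontal axis), with 1 panel per pool; points are wells and bars are medians. In each panel the bars of the 2-cell and more-than-2 classes lie above that of the 1-cell class, and the empty wells that reached this depth lie high as well.

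The share of reads from the mitochondrial genome, which often marks damaged cells, was lower in wells with more cells. Its median was 15.0% in 1-cell, 10.7% in 2-cell and 9.52% in more-than-2 wells of control replicate 1, and 12.2%, 9.69% and 7.57% in diabetes replicate 1. In diabetes replicate 2 it was 16.7%, 13.5% and 11.1%, and in control replicate 2 the values were close together at 10.7%, 10.3% and 10.6%. A commonly used filter of at least 500 genes and at most 30% mitochondrial reads kept 88 of 98 2-cell wells (89.8%) and 74 of 81 more-than-2 wells (91.4%), but 639 of 833 1-cell wells (76.7%). The pools differed in this. In control replicate 2 the filter kept 93.1% of 1-cell, 92.3% of 2-cell and 87.5% of more-than-2 wells, whereas the 1-cell shares of experiment 1 were 63.5% and 68.1%, against 12 of 12 and 20 of 23 2-cell wells. Without mitochondrial reads the 2-cell to 1-cell ratio of reads was larger, at 0.89 on the log2 scale. Whether the lower mitochondrial share has a part in the other differences was not tested.

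Which lineage led a well was then described from marker lists. For 4 lineages (endothelial, mural for the mesangial, smooth muscle and renin markers, podocyte, and leukocyte), the summed marker CPM of each well was expressed as a percentage of the 95th percentile of 1-cell wells of the same experiment, and the lineage with the highest percentage was called leading. Endothelial markers led 55 of 98 2-cell wells (56.1%), close to the 447 of 833 1-cell wells (53.7%). Mural markers led 18 (18.4%), leukocyte markers 17 (17.3%) and podocyte markers 8 (8.16%) of the 2-cell wells. In 1-cell wells these shares were 21.4%, 12.6% and 12.4%.

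By pool, endothelial markers led 6 of 12, 17 of 39, 17 of 23 and 15 of 24 2-cell wells in control replicates 1 and 2 and diabetes replicates 1 and 2. All 8 2-cell wells led by podocyte markers came from control pools, 5 and 3, and none of the 23 and 24 2-cell wells of the diabetes pools was podocyte-led, which allows shares of up to 14.8% and 14.2% by the 95% exact binomial interval. In 1-cell wells of the same pools the podocyte-led share was 4.79% and 7.56%, inside those limits. Leukocyte markers led 5 of 23 and 7 of 24 2-cell wells of the diabetes pools, against 22.3% in 1-cell wells of each.

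The more-than-2 wells had another make-up. Endothelial markers led 26 of 81 (32.1%), mural markers 31 (38.3%), podocyte markers 22 (27.2%) and leukocyte markers 2 (2.47%). Since 72 of these wells are from experiment 2, the pools are read singly. In diabetes replicate 2, endothelial markers led 27.5% of the 40 more-than-2 wells against 56.7% of 1-cell wells, mural markers 45.0% against 13.4%, podocyte markers 27.5% against 7.56%, and leukocyte markers 0 wells against 22.3%. In control replicate 2, endothelial markers led 31.3% of 32 wells against 50.0%, podocyte markers 28.1% against 14.2%, and mural markers 37.5% against 33.5%. The 4 and 5 wells of experiment 1 are too few to place: podocyte markers led 2 of 4 in the control pool and endothelial markers 4 of 5 in the diabetes pool.

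Markers of several lineages often occurred together, whatever the image showed. A lineage was counted as seen where at least 3 of its markers had a read at 10000 reads, over 5 lineages (the 4 above and tubular epithelium). Reads of at least 2 lineages were seen in 49 of 97 2-cell wells (50.5%), 56 of 81 more-than-2 wells (69.1%) and 399 of 759 1-cell wells (52.6%). The empty wells that reached the depth had the highest share, 214 of 228 (93.9%).

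Within pools, the share with at least 2 lineages in 1-cell, 2-cell and more-than-2 wells was 30.8%, 33.3% and 50.0% in control replicate 1, and 69.7%, 56.4% and 65.6% in control replicate 2. It was 35.7%, 50.0% and 40.0% in diabetes replicate 1, and 61.3%, 50.0% and 77.5% in diabetes replicate 2. The 2-cell wells differed from 1-cell wells by -1.95 percentage points on average (SD 12.9, n = 4 pools, exact permutation p = 1.0), higher in experiment 1 and lower in experiment 2. The direction of this mean was reversed under several alternatives, among them leaving out control replicate 2 (1.83 points) or diabetes replicate 2 (1.18 points), counting at 5000 reads (5.75 points) and asking for 4 markers (4.81 points). The more-than-2 wells differed by 8.89 points (SD 10.8, n = 4 pools, exact permutation p = 0.25), which turned to -6.03 points with 4 markers. Neither difference was larger than the spread between pools. All reads of an empty well are free RNA, so its share does not decide whether a shared lineage comes from a second cell.

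**Figure D3:**
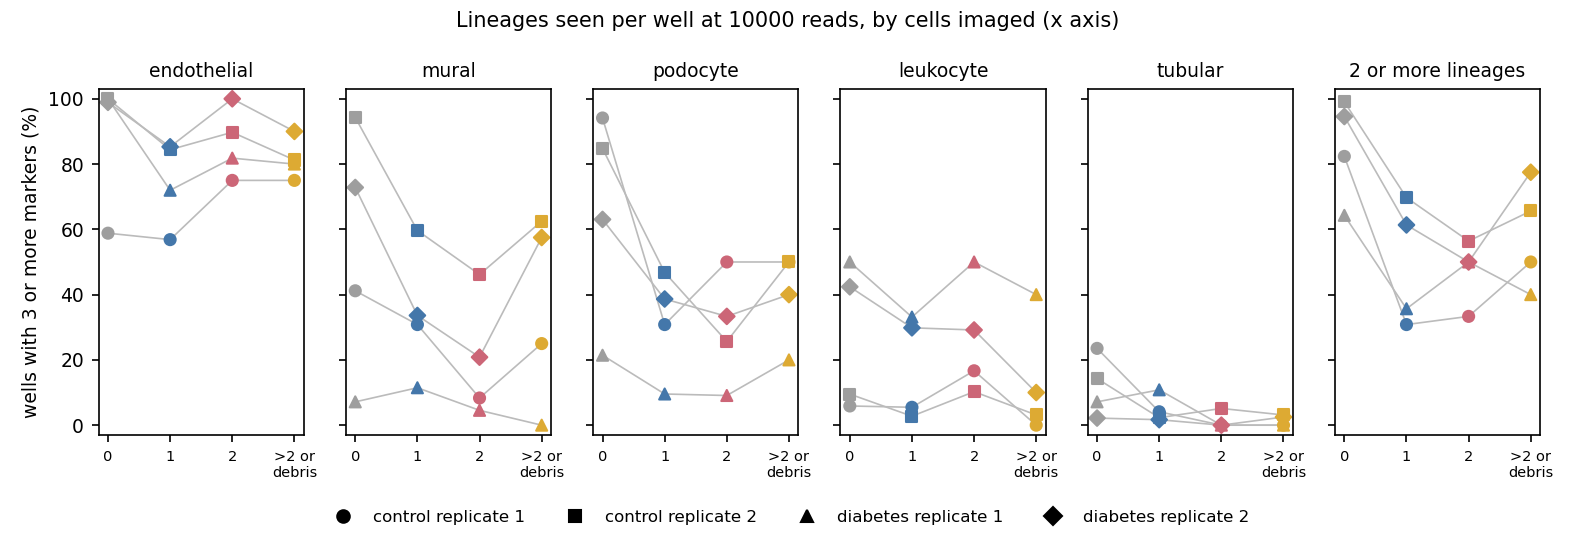
Share of wells with at least 3 markers of a lineage at 10000 reads (vertical axis, percent) against cells imaged (horizontal axis), with 1 panel per lineage and 1 for wells with at least 2 lineages; each point is a pool, its shape gives the pool and the line joins the classes of 1 pool. The empty wells lie highest for 2 or more lineages (64.3% to 99.0%), and the 2-cell points lie on both sides of the 1-cell points.

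Endothelial and leukocyte markers were seen together in a larger share of 2-cell than of 1-cell wells in each pool: 16.7% against 2.74% in control replicate 1, 10.3% against 1.83% in control replicate 2, 40.9% against 18.5% in diabetes replicate 1 and 29.2% against 22.7% in diabetes replicate 2. The empty wells of the same pools that reached the depth had 5.88%, 9.52%, 50.0% and 41.3%. The 2-cell share lay above theirs in the control pools, by few wells (2 of 12 against 1 of 17, and 4 of 39 against 10 of 105), and below theirs in the diabetes pools. At equal depth an empty well holds free RNA only, so its share is not the background of a well with cells. In experiment 1, 17 of 195 and 14 of 184 empty wells reached the depth. The comparison with empty wells thus does not decide on a second cell. In more-than-2 wells the pair was seen in 5 of 81 (6.17%). Endothelial and mural markers together were seen in 56.3% of more-than-2 wells of control replicate 2 against 50.9% of 1-cell wells, and in 52.5% against 28.2% in diabetes replicate 2, with 94.3% and 72.8% in the empty wells. These shares were not tested singly.

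A second lineage at a high level is a stricter mark of mixed content, and few wells had it. A second lineage of at least 25% of its reference was found in 11 of 98 2-cell wells (11.2%, 95% exact interval 5.74% to 19.2%), 5 of 81 more-than-2 wells (6.17%, 2.03% to 13.8%) and 42 of 833 1-cell wells (5.04%, 3.66% to 6.75%). In the empty wells the share was 20.7%. By pool the 2-cell share was 0 of 12, 6 of 39 (15.4%), 3 of 23 (13%) and 2 of 24 (8.33%), against 3.17%, 4.59%, 1.6% and 9.66% of 1-cell wells. The mean difference was 4.44 percentage points for 2-cell wells (SD 7.76, n = 4 pools, exact permutation p = 0.50), positive in 2 of 4 pools, and -1.47 points for more-than-2 wells (SD 1.44, n = 4 pools, exact permutation p = 0.25). Neither passed the test. These shares are counted without thinning, and 9 further 2-cell wells lay just below the limit, between 20% and 25%.

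Of the 11 2-cell wells with a high second lineage, 7 paired endothelial with leukocyte markers, 3 endothelial with mural and 1 endothelial with podocyte markers. Each of the 11 thus held the endothelial lineage. Among the 42 such 1-cell wells, 10 paired endothelial with leukocyte, 10 endothelial with mural and 11 endothelial with podocyte markers, and in the other 11 the endothelial lineage was not among the leading pair. The 5 more-than-2 wells held 2 endothelial and mural, 1 endothelial and podocyte, 1 endothelial and leukocyte and 1 mural and podocyte pair. The leukocyte reference was low in experiment 2 (6103 CPM, against 22426 CPM in experiment 1), so that fewer leukocyte reads reach 25% there.

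Single wells show what these pairs look like in reads. A 2-cell well of control replicate 2 (array column 17, row 18, 411906 reads) held 10984 CPM of endothelial and 9515 CPM of mural markers. It had 1828 reads of Ehd3, an endocytic protein of glomerular capillaries, 864 of the endothelial phosphatase Ptprb and 283 of the VEGF receptor Kdr, together with 466 reads of the mesangial integrin Itga8, 455 of the PDGF receptor Pdgfrb and 1041 of the protease Adamts5. Its podocyte markers summed to 957 CPM and its leukocyte markers to 23.1 CPM. This well carried full sets of endothelial and mesangial markers at similar levels.

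A 2-cell well of diabetes replicate 2 (column 3, row 6, 717456 reads, the deepest 2-cell well of its pool) paired 10363 CPM of endothelial with 6924 CPM of podocyte markers. It had 3162 reads of the capillary sialomucin Emcn and 519 of Pecam1, an adhesion molecule of endothelial junctions, beside 1322 reads of Synpo, an actin-binding protein of foot processes, and 244 of the podocyte transcription factor Wt1. The 12 podocyte markers were all detected. Mural markers were at 268 CPM.

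The endothelial and leukocyte pairs were of several kinds. In a well of control replicate 2 (column 17, row 17) 1229 reads of Emcn stood beside 300 of Fcer1g, a signalling chain of Fc receptors, 137 of Csf1r, the receptor of macrophage growth factor, and 91 of Lyz2, the lysozyme of macrophages and granulocytes. In a well of diabetes replicate 1 (column 18, row 21) 127 reads of Lyz2, 114 of Fcer1g, 55 of Cd52 and 21 of Cx3cr1, a chemokine receptor, stood beside 63 reads of Kdr and 60 of Flt1. Other wells reached the limit through 1 or 2 leukocyte genes. A well of control replicate 2 (column 19, row 19) had 223 reads of Tyrobp and 0 of Ptprc, the pan-leukocyte phosphatase, and another (column 17, row 23) had 325 of Lyz2, 128 of Ptprc and 0 of Fcer1g. The complement genes C1qa and C1qb were at 0 in all 7 of these 2-cell wells, and C1qc had 1 read in 1 of them.

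Among more-than-2 wells, a well of diabetes replicate 2 (column 2, row 24, 802303 reads) was the 1 mural and podocyte pair. It held 22998 CPM of podocyte markers, with 3033 reads of the cell cycle inhibitor Cdkn1c and 2271 of Synpo, and 4979 CPM of mural markers, with 1563 reads of the protease inhibitor Serpine2, 278 of Tagln and 185 of Acta2, genes of the contractile apparatus. Endothelial markers were at 463 CPM there. A second well of that pool (column 6, row 24) held 11726 CPM of endothelial and 9825 CPM of podocyte markers.

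**Figure D4:**
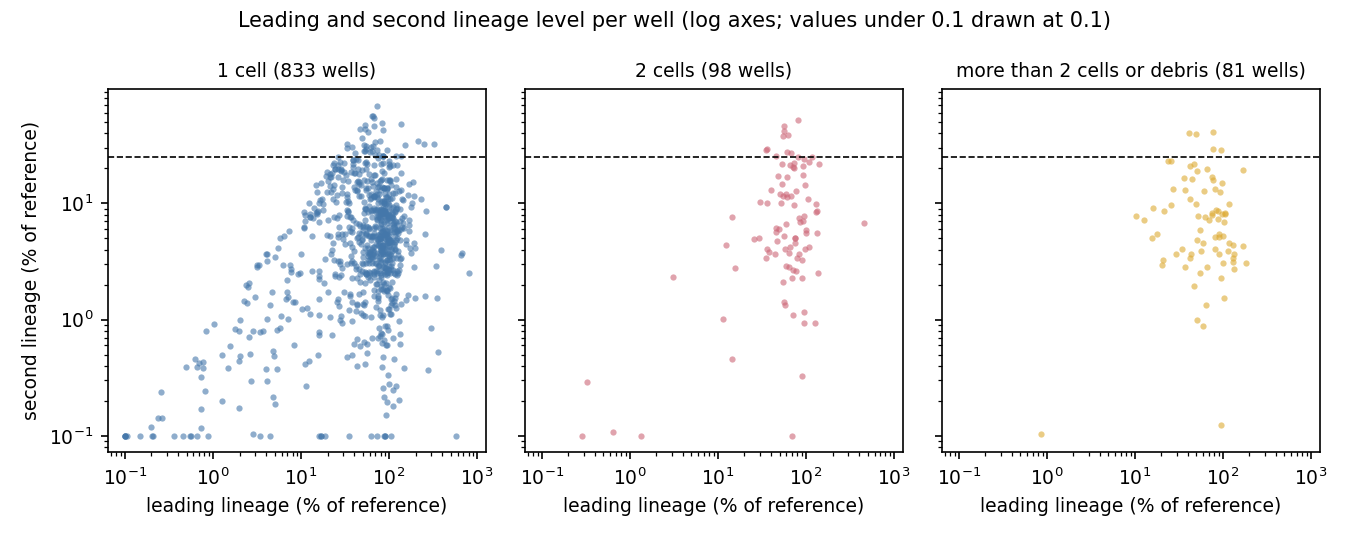
Level of the second lineage (vertical axis) against that of the leading lineage (horizontal axis) in each well, both in percent of the 95th percentile of 1-cell wells and on log axes, with 1 panel per imaging class. Points above the dashed line at 25% are the 42, 11 and 5 wells with a high second lineage, and most wells of each class lie below it.

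Pairs of a ligand and its receptor, which in the glomerulus often belong to neighbouring cells, were counted in the same way. Vegfa, the growth factor that podocytes send to the capillary, and its receptor Kdr both had reads in 58.3%, 17.9%, 18.2% and 37.5% of 2-cell wells in control replicates 1 and 2 and diabetes replicates 1 and 2, at 10000 reads. The 1-cell wells had 20.5%, 19.7%, 26.1% and 26.1%, and the empty wells 35.3%, 39%, 35.7% and 27.2%. Npnt, a matrix ligand, and its integrin receptor Itga8 were seen together in 0 of 4, 5 of 32, 0 of 5 and 7 of 40 more-than-2 wells of the 4 pools in the same order. The share was 15.6% against 10.1% of 1-cell and 39% of empty wells in control replicate 2, and 17.5% against 5.04% and 17.4% in diabetes replicate 2. In 2-cell wells this pair was seen in 4 of 97 (4.12%), all 4 in control replicate 2, against 5.01% of 1-cell wells. Efnb2 and Ephb4, a ligand and receptor of the arterial and venous sides of vessels, were seen together in 33.3%, 20.5%, 22.7% and 8.33% of 2-cell wells against 13%, 6.88%, 16.6% and 7.98% of 1-cell wells, higher in 4 of 4 pools, with 0%, 5.71%, 21.4% and 6.52% in the empty wells. In more-than-2 wells this pair was seen in 5 of 81 (6.17%). Of the 9 pairs looked at, Cxcl12 and Cxcr4 were in no well of any class together.

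For gene levels, the counts of all wells of a class were summed within each pool and the class sums were compared with edgeR's quasi-likelihood test, with the pool as a block and Benjamini-Hochberg adjustment over all genes tested. No gene of 12897 was called between 2-cell and 1-cell sums at an adjusted p under 0.05, and no gene of 12977 between more-than-2 and 1-cell sums: the share called was 0% in both. The unadjusted p was under 0.05 for 640 genes (104 higher and 536 lower in 2-cell wells, or 173 and 467 with RLE scaling) and for 645 genes (48 higher and 597 lower in more-than-2 wells). DESeq2 called 110 (11 higher, 99 lower) and 98 (7 higher, 91 lower). The 640 of 12897 and 645 of 12977 genes at an unadjusted p under 0.05 are about as many as chance gives at that threshold. Counts within lists are to be read against them. The median log2 fold change over all genes was -0.34 and -0.60. It was -0.82 and -1.18 without the low-count filter, and -0.19 and -0.33 with thinned wells. These medians thus moved with the genes and reads that entered. They are given beside the lists for orientation and are not a fixed baseline for abundant genes.

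The endothelial markers differed between 2-cell and 1-cell sums by less than the spread between pools (mean log2 ratio 0.09 ± 0.19, SD, n = 4 pools). They summed to 8407 against 7564 CPM in control replicate 1, 10189 against 11532 CPM in control replicate 2, 12138 against 11242 CPM in diabetes replicate 1 and 14169 against 11837 CPM in diabetes replicate 2 (2-cell first). The median log2 fold change of the 12 markers was 0.01 (-0.34 over all genes), with 7 above 0 and 1 at an unadjusted p under 0.05 (640 of 12897 over all genes). That gene was Pecam1, at 378, 488, 426 and 543 CPM in 2-cell sums against 201, 373, 336 and 457 CPM in 1-cell sums of control replicates 1 and 2 and diabetes replicates 1 and 2 (log2 fold change 0.42 ± 0.17 SE, adjusted p = 0.91 by edgeR). One well held up to 58.1% of a 2-cell sum of Pecam1. Kdr had a log2 fold change of -0.05 and Flt1 of 0.31.

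In more-than-2 sums the endothelial markers were lower in 3 of 4 pools. They summed to 5308 CPM in control replicate 1, 5854 CPM in control replicate 2 and 5141 CPM in diabetes replicate 2, and to 11365 CPM in diabetes replicate 1, where they matched the 1-cell sum. All 12 had a fold change below 0 (median -0.81, against -0.60 over all genes), 6 of them at an unadjusted p under 0.05 (645 of 12977 over all genes). Kdr, on chromosome 5 at 75932827-75978458 (GENCODE M21 annotation of mm10), was at 269, 470, 1095 and 458 CPM against 1096, 1501, 1643 and 1559 CPM in 1-cell sums. Each pool was lower, but the groups only just stay apart, since the 1095 CPM of diabetes replicate 1 lies beside the 1096 CPM of 1-cell wells of control replicate 1. Its log2 fold change was -1.74 ± 0.26 (SE) with an adjusted p of 0.084 by edgeR. Plpp1, a lipid phosphatase, was at 981, 1088, 1262 and 1128 CPM against 1958, 2516, 2080 and 2937 CPM (log2 fold change -1.31 ± 0.19 SE, adjusted p = 0.084), with the groups well apart. One well held up to 63.4% of a more-than-2 sum of Kdr and up to 43.2% of 1 of Plpp1. Both genes were called when control replicate 2 was left out and when wells were thinned to 10000 reads. Over the alternatives the adjusted p ran from 0.0028 to 1.0 for Kdr and from 0.022 to 1.0 for Plpp1, with the same direction in 11 of 11 settings for each.

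Podocyte markers stood higher in the more-than-2 sums of each pool. Their sum was 15542 against 5330 CPM in control replicate 1, 6065 against 4719 CPM in control replicate 2, 577 against 534 CPM in diabetes replicate 1 and 6058 against 2080 CPM in diabetes replicate 2 (mean log2 ratio 0.89 ± 0.76, SD, n = 4 pools). In diabetes replicate 1, 8 of the 12 markers had no read in the 5 wells, and a single well held 66.7% of the list's reads in control replicate 1. Of the 12 genes, 9 had a fold change above 0 (median 0.43, against -0.60 over all genes), and 1 had an unadjusted p under 0.05 (645 of 12977 over all genes). That gene was Clic5, a chloride channel family protein of foot processes that glomerular endothelium expresses too, at 2446, 734, 460 and 529 CPM against 772, 498, 284 and 331 CPM (log2 fold change 0.67 ± 0.24 SE, adjusted p = 0.90 by edgeR). One well held up to 56.6% of a more-than-2 sum of Clic5. In 2-cell sums podocyte markers were higher in 1 pool only (11567 against 5330 CPM in control replicate 1), and the median of the 12 was -0.65.

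Podocyte markers were also counted by well. At 10000 reads, at least 3 of them were seen in 2 of 4, 16 of 32, 1 of 5 and 16 of 40 more-than-2 wells of control replicates 1 and 2 and diabetes replicates 1 and 2. In control replicate 2 this share was 50.0% against 46.8% of 1-cell and 84.8% of empty wells, and in diabetes replicate 2 it was 40.0% against 38.7% and 63.0%, so at equal depth the classes lay close together and below the empty wells. The summed podocyte CPM of empty wells also lay above that of 1-cell wells in the 4 pools, between 676 and 6594 CPM. Without thinning, Synpo had reads in 90.1% of more-than-2 wells, 59.2% of 2-cell wells, 58.9% of 1-cell wells and 47.6% of empty wells. For Wt1 the shares were 61.7%, 41.8%, 40.1% and 29.9%. These last shares are over all pools, and 72 of the 81 more-than-2 wells are from the deeper experiment 2, so depth moves with them.

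Mesangial markers varied between pools more than between classes. Their 2-cell sum was 458 against 3312 CPM in control replicate 1, 4672 against 4575 CPM in control replicate 2, 842 against 719 CPM in diabetes replicate 1 and 790 against 1970 CPM in diabetes replicate 2. In control replicate 1 no 2-cell well was led by mural markers. The more-than-2 sums were 6434, 5702, 94.9 and 5509 CPM in the same order of pools, and a single well held 95.8% of the first. The median over the 11 genes was -1.48 in 2-cell and -0.01 in more-than-2 sums. Pdgfrb, at 19, 232, 22.2 and 18.1 CPM in 2-cell against 138, 355, 46.6 and 148 CPM in 1-cell sums, had an unadjusted p of 0.0053 and an adjusted p of 0.91 by edgeR. One well held up to 92.3% of a 2-cell sum of Pdgfrb.

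Smooth muscle and renin markers were lower in 2-cell sums of each pool, at 95.1, 318, 12.6 and 89.8 CPM against 1530, 858, 537 and 444 CPM in 1-cell sums (mean log2 ratio -3.26 ± 1.73, SD, n = 4 pools). In the same order of pools (control replicates 1 and 2, diabetes replicates 1 and 2), a single well held 63.6%, 46.8%, 37.1% and 30.3% of the 1-cell sums. The median 1-cell well was at 0, 15.3, 0 and 7.22 CPM. These sums thus rest on few wells. All 9 genes tested had a fold change below 0, 8 of them at an unadjusted p under 0.05 (640 of 12897 over all genes). The gene with the smallest p was Ren1, which encodes renin, on chromosome 1 at 133350510-133360325. It had 1258, 10.1, 0 and 5.37 CPM in 1-cell sums and 11.7, 0, 0 and 0 CPM in 2-cell sums (adjusted p = 0.080 by edgeR). Its reads came from few wells: 36 of 833 1-cell wells had any (4.32%), against 2 of 98 2-cell wells (2.04%, 95% exact interval 0.248% to 7.18%) and 35 of 588 empty wells (5.95%), and a single well held up to 94.9% of a 1-cell sum. The interval of the 2-cell wells holds the 1-cell share, so a difference in the share of wells was not detectable. In more-than-2 sums this list was at 18.9, 143, 8.12 and 640 CPM, with 63.0% of the last in 1 well.

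Most other genes of smallest p in the 2-cell comparison had reads in few wells, and single wells held much of their sums. Slc12a3, the sodium chloride transporter of the distal tubule, was at 0, 1.87, 0 and 1.64 CPM against 11, 125, 65.4 and 87.8 CPM, with up to 75.7% of a 1-cell sum in a single well. It had reads in a larger share of 2-cell wells (9.18%) than of 1-cell wells (7.68%), against the direction of its sums. Klk1, a kallikrein of the connecting tubule, was at 0, 20.7, 11.9 and 1.31 CPM against 366, 266, 709 and 612 CPM, with up to 78.3% of a 1-cell sum in a single well, and had reads in 13.3% of 2-cell and 17.9% of 1-cell wells. Sfrp1 (a secreted Wnt antagonist), Calb1 (a calcium-binding protein of the distal tubule), Rgs5 (a regulator of G protein signalling in pericytes), Mki67 (a proliferation marker) and the haemoglobin genes Hbb-bt and Hba-a1 had lower sums too, at adjusted p between 0.25 and 0.91 by edgeR, with up to 44.0% (Rgs5) to 99.6% (Mki67) of a 1-cell sum in 1 well. The only one of the 10 genes of smallest p that was higher was Gda, guanine deaminase, at 43.9, 59.5, 127 and 382 CPM against 4.80, 16.5, 31.2 and 232 CPM (log2 fold change 1.86 ± 0.38 SE, adjusted p = 0.91), and it had reads in 42.9% of 2-cell and 29.7% of 1-cell wells. One well held up to 96.7% of a 2-cell sum of Gda, a share that can come from a pool with few of its reads. The shares of wells given for Slc12a3, Klk1 and Gda are without thinning and over all pools. Since 2-cell wells held more reads, depth moves with these shares.

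In the more-than-2 comparison the 2 genes of smallest p were of plasma cells. Igkc, the constant region of the kappa light chain, was at 0, 0.727, 0 and 839 CPM against 34, 14.1, 23.9 and 4972 CPM (adjusted p = 0.076 by edgeR), and Jchain, which joins immunoglobulin units, at 0, 0.0808, 0 and 54.2 CPM against 2.17, 2.01, 0 and 1278 CPM (adjusted p = 0.080). Both rest on diabetes replicate 2, where most of their reads lie. A single well held up to 85.5% (Igkc) and 100% (Jchain) of a 1-cell sum. Each share is the largest in any pool, so it need not be that of diabetes replicate 2. By well they were detected more often in the more-than-2 class, Igkc in 34.6% against 21% and Jchain in 23.5% against 13.4% of 1-cell wells. These shares are without thinning and over all pools, so depth and the mix of pools move with them. Cd300lg, Plat and Cyp4b1, genes expressed by endothelium, followed with log2 fold changes of -1.76, -1.10 and -1.55. Nes, an intermediate filament of podocytes and other glomerular cells, was the 1 gene of the 10 that was higher, at 1212, 929, 335 and 677 CPM against 318, 474, 152 and 270 CPM in 1-cell sums (log2 fold change 1.1 ± 0.25 SE, adjusted p = 0.74). One well held up to 55.4% of a more-than-2 sum of Nes. The groups of 4 overlapped only through the 335 CPM of diabetes replicate 1, which lies above the 1-cell sum of its own pool.

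Leukocyte markers had a median log2 fold change of -0.04 in 2-cell sums (6 of 12 above 0) and lay lower in more-than-2 sums (median -2.56, 12 of 12 below 0, 5 at an unadjusted p under 0.05). Over all genes the medians were -0.34 and -0.60, and 645 of 12977 genes reached that p in more-than-2 sums. In diabetes replicate 2, which has many leukocyte-led 1-cell wells, the list summed to 1429 CPM in 2-cell, 90.4 CPM in more-than-2 and 1662 CPM in 1-cell sums. In diabetes replicate 1 the more-than-2 sum was 9226 CPM, 98.8% of it from 1 well. In 2-cell sums of diabetes replicates 1 and 2, 1 well held 55.9% and 83.4% of the list, against 12.8% and 13.1% in 1-cell sums. The multi-cell sums of this list in these pools thus rest largely on single wells, except the more-than-2 sum of diabetes replicate 2 (15.3%).

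**Figure D5:**
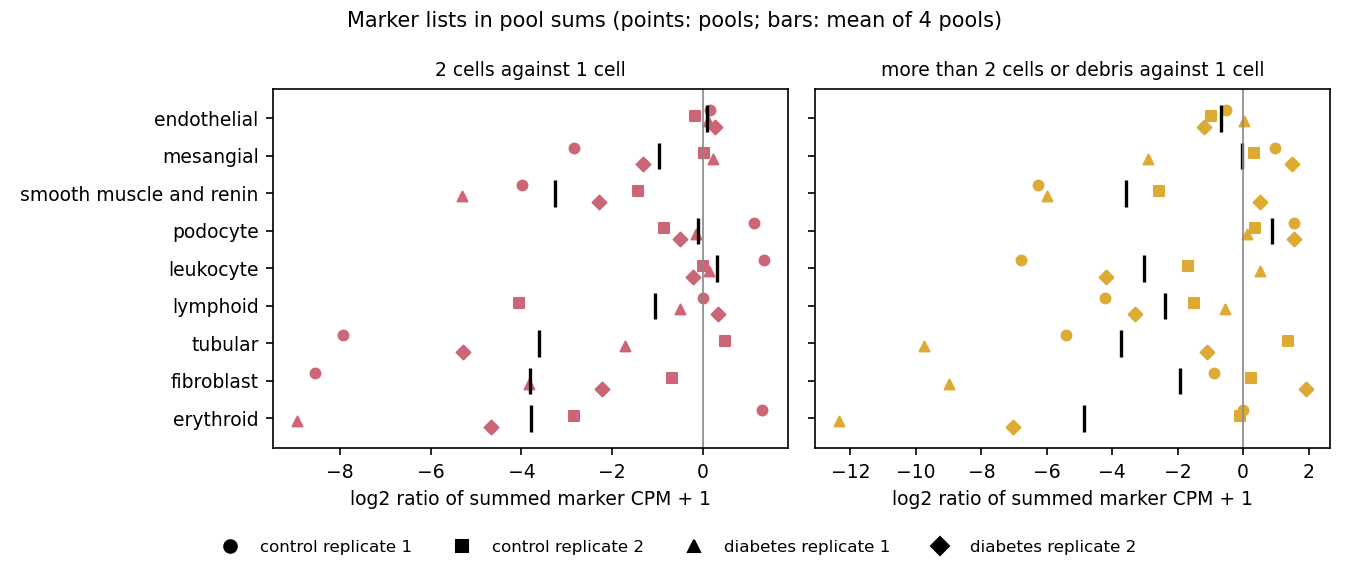
Log2 ratio of the summed marker CPM + 1 against 1-cell sums (horizontal axis) for 9 marker lists (vertical axis), with 2-cell sums on the left and more-than-2 sums on the right; each point is a pool and the bar is the mean of 4 pools. Endothelial points lie near 0 on the left, podocyte points lie above 0 in the 4 pools on the right, and lists of rare cell types spread over several log2 units.

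Of the further gene lists, ribosomal protein genes leaned upward in 2-cell sums: 76 of 82 had a fold change above 0 (median 0.25, against -0.34 over all genes), 12 of them at an unadjusted p under 0.05 (640 of 12897 over all genes). In more-than-2 sums 55 of 82 were above 0 (median 0.12, against -0.60 over all genes) and none reached that p. Genes of the mitochondrial genome leaned downward, together with the mitochondrial shares given above. In 2-cell sums 21 of 22 were below 0 (median -0.59, against -0.34 over all genes). In more-than-2 sums 21 of 25 were (median -1.05, against -0.60 over all genes). Immediate early genes, which digestion of tissue can induce, had a median of -0.11 in 2-cell and -1.62 in more-than-2 sums. Fos, named after its values were seen, was at 214, 239, 478 and 194 CPM in 2-cell against 94.8, 213, 186 and 66.7 CPM in 1-cell sums (unadjusted p = 0.0070, adjusted p = 0.91 by edgeR). One well held up to 86.3% of a 2-cell sum of Fos. Of the 12 genes of this list, 5 had a fold change above 0 and 7 below. Dusp1 was lower, with a log2 fold change of -0.60 (unadjusted p = 0.046, adjusted p = 0.91 by edgeR). Heat shock genes (median 0.01), glomerular matrix genes (-0.31) and genes of p53 and cell death (-0.16) lay near 0 or near the median of all genes in 2-cell sums. In more-than-2 sums the p53 and cell death list had a median of -1.10 (-0.60 over all genes), with 9 of 10 below 0. Proliferation genes lay lowest of these further lists in 2-cell sums, with a median of -2.65 (-0.34 over all genes) and 13 of 16 below 0. Of these genes 5 had an unadjusted p under 0.05 (640 of 12897 over all genes). In more-than-2 sums their median was -1.48 (-0.60 over all genes), with 20 of 21 below 0. For the median gene of the list, 1 well held up to 97.4% of a 2-cell sum and 100% of a more-than-2 sum. Cell junction genes had a median of -0.51 in 2-cell sums and 0.09 in more-than-2 sums. Of them 1 gene of 11 and 1 of 12 had an unadjusted p under 0.05, against 640 of 12897 and 645 of 12977 over all genes.

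The difference between 2-cell and 1-cell wells was also compared between conditions. No gene of 12897 was called for the interaction with diabetes (0%) by edgeR, 311 had an unadjusted p under 0.05, and DESeq2 called 29. The log2 ratio of reads was 1.04 and 0.67 in the control pools and 0.53 and 0.69 in the diabetes pools, so the ranges overlap. With 2 pools per condition, the test by edgeR as fitted detected no difference between conditions in the 2-cell against 1-cell comparison. The conditions also differed in Xist and Y-linked reads. The interaction was not tested for more-than-2 wells. Igkc was called when either control pool was left out, and Igkc and Igha with thinned wells.

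Reads of Xist and of Y-linked genes were also looked for in the same well. Both were present in 5 of 39 2-cell wells and 1 of 32 more-than-2 wells of control replicate 2, and in none of the other multi-cell wells. In that pool 10 of 218 1-cell and 13 of 111 empty wells held both, and the Y-linked genes together were at 0.374 CPM in the 2-cell sum against 4.75 CPM in the empty wells. These levels are over all wells of a class, and the level in the wells that held both was not computed.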

How the data were processed

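RNA was measured per chamber of a Fluidigm C1 chip. The authors deposited estimated counts per gene and well, many of them not whole, and, for experiment 1, whole read counts of 95 spike-in sequences. The submitters' processing notes list featureCounts 1.5.1, STAR 2.4.2a, cutadapt 1.11 and BWA 0.7.17-r1188 and the mm10 build; how reads matching several genes were shared was not stated. GENCODE M21 named 45143 of 45792 gene identifiers, and the 649 without a symbol were kept.

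All wells entered, grouped by imaging label and pool. Reads per well ran from 7838 to 1303650 in the multi-cell wells. Counts were summed per class and pool, rounded, and tested with edgeR 4.0.16 (TMM scaling, filterByExpr, robust quasi-likelihood, pool as a block, threshold 0.05); standard errors are the fold change over the root of F. DESeq2 1.42.0, RLE scaling, no filter, all classes in 1 fit, thinned wells, wells passing a quality filter, no block and leaving out each pool were alternatives. The block comes from the design: both classes of a pool share mice and suspension. Per-well measures were compared over 4 pools with an exact sign-flip permutation test, whose smallest p is 0.125. Wells are not replicates, and with pooled mice p-values measure the spread between pools. Thinning was without replacement, with a fixed seed. For a gene, the share of a sum held by a single well is the largest over the 4 pools. Intervals are exact binomial (Clopper-Pearson) at 95% and cover counting error only. The fit was tested on simulated data. Doublets were kept, being the subject. No well repeated the values of another.

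Since no gene was called, named genes were the 10 of smallest p in each comparison, with members of the marker lists and ligand-receptor pairs; others were chosen after their values were seen. The members and lists were chosen with earlier results of these data known. One member of the podocyte list is not reported here.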

Additional observations from a re-analysis of the deposited data

Results flagged for a closer look

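Of 40 groups of values, 4 had a sample far from the others by Dixon's ratio at 95%, and chance flags about 1 in 20 groups. Among the 4 wells with more than 2 cells or debris of control replicate 1, 1 well had 1743 genes at 10000 reads, the lowest of the 4. In the same 4 wells, 1 well had a second lineage at 19.2% of its reference, while the upper quartile was 8.08%. Among the 5 such wells of diabetes replicate 1, 1 well had 4991 genes, against a class median of 2847. Over the 4 pools, the log2 ratio of genes per well between these wells and 1-cell wells was 1.13 in control replicate 1, and 0.33, 0.41 and 0.34 in control replicate 2 and diabetes replicates 1 and 2. No cause of these gaps was tested.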

How the results depend on the processing

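Of 151 alternative values for 32 results, 129 kept their direction or stayed within the spread, 7 were reversed and 15 moved. The share of wells with 2 or more lineages, 2-cell minus 1-cell (-1.95 points), became 4.81 with at least 4 markers, 5.75 at 5000 reads, 6.30 without thinning and 0.0421 above the 95th percentile of empty wells, and ran from -7.38 to 1.83 when 1 pool was left out. For more-than-2 wells the 8.89 points became -6.03 with 4 markers. The log2 ratio per spike-in read (0.80) became 0.97 as a mean over wells. Counts of genes called were 0 in the 3 comparisons (2-cell, more-than-2, interaction) and became 110, 98 and 29 with DESeq2; 4 (2-cell: Ren1, Sfrp1, Hbb-bt, Slc12a3) and 3 (interaction: Igfbp7, Jchain, Gsta4) without the low-count filter; 1 (2-cell: Ren1) in wells passing the quality filter; 2 (Klk1, Rgs5), 24 and 2 (Igkc, Igha) with thinned wells; and 1 (more-than-2: Igkc) with RLE scaling. Leaving out a pool gave 0 for 2-cell, 0 to 26 for more-than-2 (26 without control replicate 2, all lower and among them Kdr and Plpp1; 2, Jchain and Igkc, without diabetes replicate 1) and 0 to 1 for the interaction (Igkc, without either control pool). Without the replicate block that pairs the classes of a pool, 0 genes were called in each comparison. These genes were named after their values were seen, and the cause of each change was not tested. Few multi-cell wells per pool (4 to 40) and reads held by single wells limit gene levels, and 4 pools limit each test.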
